A study of Rattus norvegicus with 16 samples.

Results

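Ncam1, Nrcam, Emb and Alcam encode cell surface adhesion molecules with immunoglobulin-type domains, and their transcripts were compared between innervated and denervated EDL, the extensor digitorum longus, a fast muscle of the lower leg. Probes were taken by the platform's gene symbol, which gave 1 probe for each gene, or 4 of the 1176 probes tested. The study comprised 16 nylon membrane arrays of whole-muscle total RNA from Brown-Norway rats aged 6 months. There were 8 arrays of control EDL and 8 arrays of EDL denervated for 2 months, and rats were numbered 1 to 8 in each group. The labels give no genotype or drug, and they do not state how the nerve was interrupted, whether control muscle came from other animals or the opposite leg, or whether equal rat numbers stand for 1 animal. Arrays were counted as separate rats, and p-values for a difference between groups set it against the spread between arrays. The 4 genes were chosen by their difference between denervated and control muscle on these same arrays. Their differences are accordingly described with standard errors and carry no test.

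Immunoglobulin-type adhesion molecules hold cells together by binding a copy of themselves or another surface protein on the neighbouring cell. Ncam1 is the neural cell adhesion molecule, carried by nerve cells, Schwann cells, muscle precursors and developing fibres, and in innervated adult fibres it is concentrated at the nerve contact. Its return along the fibre surface is a textbook sign of denervation. Nrcam is a relative of L1 that binds the ankyrin cytoskeleton and clusters proteins at nodes of Ranvier. Emb, embigin, belongs with basigin and neuroplastin to a small group that escorts lactate transporters to the cell surface. Alcam, also called CD166, binds itself and the lymphocyte receptor CD6 and is found on growing axons, endothelium and leukocytes.

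The deposited values are on a logarithmic scale whose base is not given in the sources used here. Levels and differences are therefore in log units, so that a step of 1 corresponds to a factor of 2 only if the base is 2. The lowest value of an array, its floor, was shared by 22 to 206 probes, and a value at the floor is only an upper bound. The mean value lay between 8.19 and 8.31 on 15 arrays and at 6.63 on the array of control rat 6, so results are also given without that array or after centring each array on its median. Over all probes the median difference was 0.22, or 0.03 without control rat 6. Floors were lower on the denervated arrays of rats 5 to 8 (2.51 to 4.08) than on those of rats 1 to 4 (4.99 to 5.93). The arrays of rats 1 to 4 and of rats 5 to 8 correlated better within these sets than between them, with a mean r over probes of 0.79 against 0.70 in denervated muscle and 0.67 against 0.58 in control muscle. The labels name no batch, and the sets are numbers only. Muscle fibre transcripts were present, with all 4 measured fibre markers of 22 above the floor on every array, among them Ckm, the muscle creatine kinase, at a mean of 13.01 in control and 13.72 in denervated muscle. Of these 4 markers 1 fell, Mylk2, the skeletal myosin light chain kinase, by 1.87 (adjusted p = 4.18e-04 in limma), where 0.85% of all probes were called lower. That call was lost in rats 5 to 8 alone (adjusted p = 0.084). Cacna1s (-0.03) and Pgam2 (0.15) did not pass, but both were called lower after quantile normalisation (by limma, adjusted p = 0.00230 and 0.0172).

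Ncam1, Nrcam and Emb had means 1.96 to 2.97 log units higher in denervated muscle, while Alcam was low, with floor values in 3 control and 2 denervated rats, and had no settled direction. Of the 4 genes, 3 were among the probes called higher by limma over all 1176 probes (adjusted p under 0.05), a call that 5.44% of all probes received. Nothing is read from that count, because this comparison led to the choice of the genes. In whole muscle, a change in RNA per cell and a change in the number of cells of a type cannot be told apart.

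**Figure D1:**
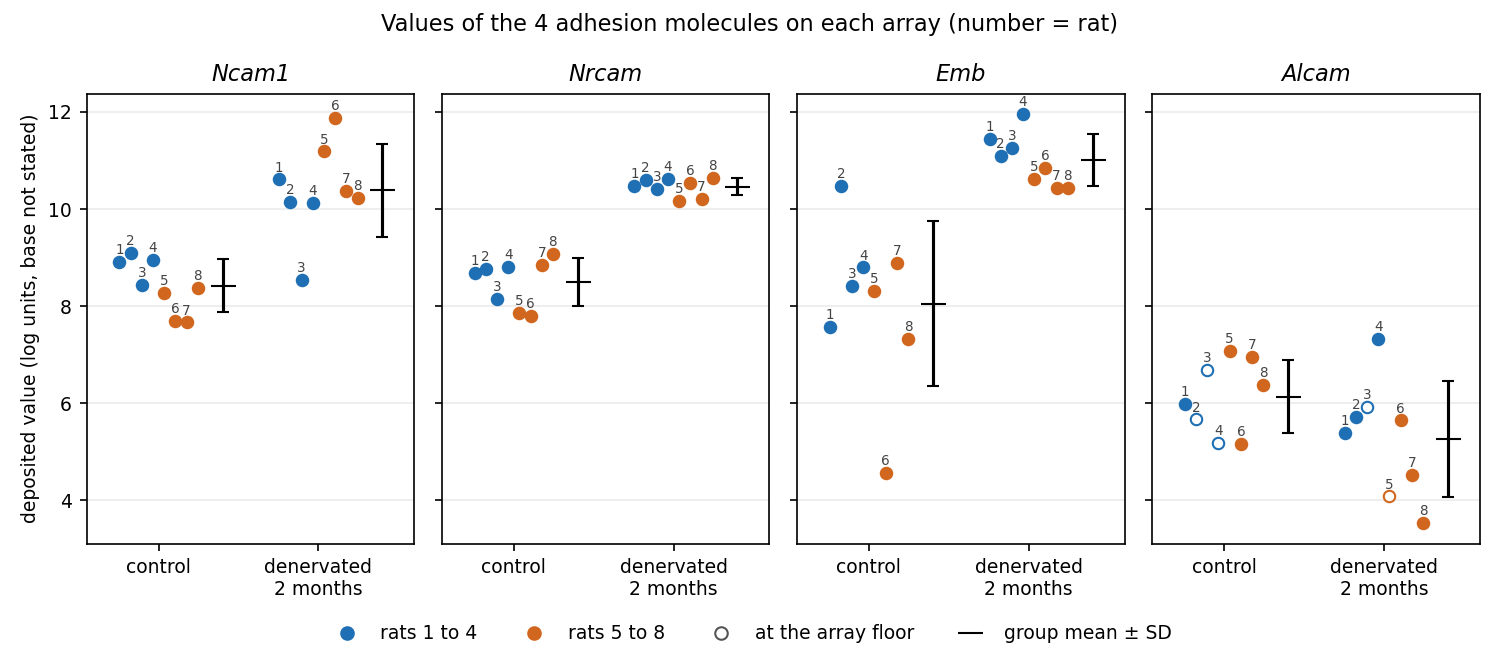
Each point is the deposited value (vertical axis, log units, base not stated) of 1 probe on 1 array, labelled with the rat number; colours mark rats 1 to 4 and rats 5 to 8, open points lie at the array's floor, and bars are the group mean ± SD (n = 8 per group). The groups are separate for Nrcam, overlap through 1 array for Ncam1 (denervated rat 3) and for Emb (control rat 2), and overlap widely for Alcam.

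Ncam1 values in control muscle had a minimum of 7.66, a median of 8.40 and a maximum of 9.09, and those in denervated muscle a minimum of 8.53, a median of 10.30 and a maximum of 11.88. Of the 8 denervated arrays, 7 lay above every control array, and the exception was rat 3, whose value fell inside the control range. The means were 8.42 ± 0.55 and 10.38 ± 0.96 (SD, n = 8 per group), a difference of 1.96 (SE 0.38). No array was near its floor, the closest control value lying 1.75 above it. The size of the difference depended on the rats. In rats 1 to 4 the mean went from 8.84 ± 0.29 to 9.85 ± 0.91, and in rats 5 to 8 it reached 10.92 ± 0.77 in denervated muscle (SD, n = 4 per group). The differences were 1.01 and 2.92, and after centring 1.09 and 2.42. Control values were higher in rats 1 to 4 (8.43 to 9.09) than in rats 5 to 8 (7.66 to 8.37), with no overlap as deposited. Control rat 6 is among the latter, and after centring the ranges overlapped (0.32 to 0.97 and -0.85 to 0.71). The difference between the sets was not tested. Without denervated rat 3 Ncam1 differed by 2.23, and without control rat 6 by 1.86.

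Nrcam was the only one of the 4 genes whose groups did not overlap. Control values ran from 7.80 through a median of 8.73 to 9.07, and denervated values from 10.17 through a median of 10.51 to 10.64. Every denervated array thus lay above every control array, by a gap of 1.10 between the closest values. Groups were separate in this direction for 1.19% of all probes. The means were 8.50 ± 0.49 and 10.46 ± 0.18 (SD, n = 8 per group), and the difference of 1.96 (SE 0.33) was equal to that of Ncam1 to the second decimal. Unlike Ncam1, Nrcam differed by nearly the same amount in rats 1 to 4 (1.93) and in rats 5 to 8 (2.00), and by 1.86 without control rat 6. After centring the groups remained separate, with a difference of 2.01 for rats 1 to 4 and of 1.498 for rats 5 to 8. As deposited, Nrcam was even among denervated rats, and 2 of the 1176 probes had a smaller SD there, where the median probe had an SD of 0.77. After centring its SD was 0.36, 72 probes had a smaller one, and the means were 2.42 in rats 1 to 4 and 1.86 in rats 5 to 8. In control muscle 11 probes had a smaller SD than Nrcam, where the median probe had 0.99.

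Emb had the largest difference of the 4 genes and the widest spread in control muscle. Control values went from 4.57 through a median of 8.36 to 10.48, and denervated values from 10.43 through a median of 10.97 to 11.96. As deposited the groups overlapped by 0.05, through control rat 2, whose 10.48 stood just above denervated rats 7 and 8 (10.43 each). After centring the overlap was 0.53, and control rat 2 (2.36) stood above denervated rats 5, 7 and 8 (2.08, 1.83 and 1.94). The low extreme was control rat 6, the array with the low mean. Even after centring, that array stood at -2.42 relative to its median, where the other control arrays lay between -0.91 and 2.36. The means were 8.04 ± 1.70 and 11.01 ± 0.54 (SD, n = 8 per group), a difference of 2.97 (SE 0.46). Without control rat 6 the difference was 2.47, and without control rat 2 it was 3.31. In denervated muscle the sets did not overlap, with 11.10 to 11.96 in rats 1 to 4 and 10.43 to 10.85 in rats 5 to 8. The differences from control were 2.63 and 3.31 as deposited, and 2.71 and 2.81 after centring. Control rat 6 is among rats 5 to 8.

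Emb was the only one of the 3 higher genes with an entry in the RefSeq promoter table of assembly GRCr8, which held 2 of the 4 genes. Its upstream sequence is printed because transcription factors of the myogenic and Runx families, which are known to respond to denervation, bind short motifs that can be searched in it. The 250 bases before the start of Emb, chr2:50803218-50803467 on the plus strand, are shown with the matched motif in capitals.
Emb: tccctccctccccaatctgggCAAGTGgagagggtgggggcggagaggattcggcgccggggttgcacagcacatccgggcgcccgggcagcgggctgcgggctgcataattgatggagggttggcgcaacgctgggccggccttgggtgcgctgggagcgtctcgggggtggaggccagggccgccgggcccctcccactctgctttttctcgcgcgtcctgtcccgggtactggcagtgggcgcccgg
The motif searched was CANNTG, the E-box bound by myogenic factors, which reads the same on both strands. It occurred once, with its first base 229 bases upstream of the start. Of 33469 promoters with the same window 65.5% held at least 1 such match, so a match is common. The Runx core TGTGGT, searched on both strands, occurred in 14.5% of promoters and was not among the letters of this window. Neither motif was among the letters of the Alcam window.

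Alcam had the lowest means of the 4 genes in both groups as deposited. Control values ran from 5.16 through a median of 6.18 to 7.08, and denervated values from 3.53 through a median of 5.52 to 7.32. Values were at the floor on 3 control arrays and on 2 denervated arrays, so several are upper bounds, and the groups overlapped. The mean was 6.14 ± 0.76 in control and 5.26 ± 1.20 in denervated muscle (SD, n = 8 per group), a difference of -0.87 (SE 0.61). That sign came from rats 5 to 8, where the difference was -1.95, while in rats 1 to 4 it was 0.21. After centring these differences were -2.45 and 0.29. Centred values in rats 5 to 8 were -1.85 to -1.31 in control and -4.96 to -2.83 in denervated muscle. Among denervated arrays, those of rats 5 to 8 had the lower floors. When all values were raised to a common floor of 6.69, the highest floor of any array, the difference was -0.0037 (SE 0.10). Only 2 control arrays and 1 denervated array, rat 4, had Alcam above that floor. The common floor thus set most values equal and left little room for a difference. Quantile normalisation gave -0.29 (SE 0.35). No difference in Alcam was detectable at this signal.

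**Figure D2:**
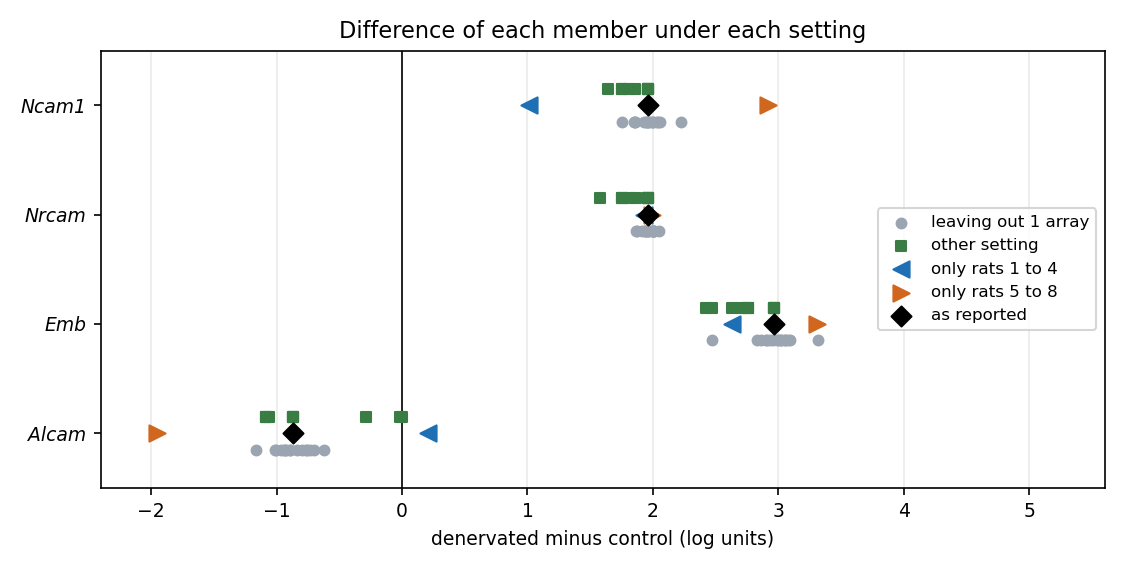
The horizontal axis is the difference, denervated minus control, in log units; for each gene the diamond is the reported value, triangles are fits to rats 1 to 4 or rats 5 to 8 alone, circles leave out 1 array, and squares are other settings. Ncam1, Nrcam and Emb lie above 0 throughout (1.01 to 2.92, 1.58 to 2.04 and 2.42 to 3.31), with Ncam1 set apart by its triangles, and Alcam lies on both sides of 0 (-1.95 to 0.21).

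On the array of rat 3 Ncam1 was the lowest of its group at 8.53, while Nrcam at 10.41 and Emb at 11.26 lay well above all control values of the same gene. Denervated rat 6 had the highest Ncam1 value (11.88, and 3.39 after centring). The highest Emb value was that of rat 4 (11.96), and the highest Nrcam values were those of rat 8 (10.64) and rat 4 (10.62). After centring rat 4 was highest for both Nrcam (2.65) and Emb (3.98).

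Whether the genes varied together among rats of 1 group was asked with 12 correlations, 6 pairs in each group of 8 arrays after centring, which do not use the difference between groups. In control muscle Pearson's r ranged from -0.53 to 0.43. Ncam1 and Nrcam gave r = 0.43 (exact permutation p = 0.288, adjusted p = 0.579) and Spearman's rho = 0.48 (exact permutation p = 0.243, adjusted p = 0.486), and r = 0.64 without rats 2 and 7. No pair in control muscle passed after Benjamini-Hochberg adjustment over the 12. In denervated muscle 2 pairs passed by Pearson's r, Nrcam with Emb and Emb with Alcam, and none passed by Spearman's rho, for which the smallest adjusted p was 0.0871. In those pairs rats 1 to 4 and rats 5 to 8 formed separate clusters, since the centred Nrcam values were 2.31 to 2.65 and 1.62 to 2.15 and those of Emb 2.90 to 3.98 and 1.83 to 2.37. A pooled r is therefore not given, and each set of 4 rats was too small for its own. With deviations taken from the mean of each set, no pair passed (smallest adjusted p = 0.521, exact permutation within sets).

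The probes whose pattern over the 16 centred arrays was most like each gene were ranked by Pearson's r among 1105 other probes with 1 gene. These r values include the difference between groups and effects shared by an array, and are descriptions. Closest to Ncam1 were 3 genes of protein synthesis, Eef1a1 (elongation factor 1 alpha, r = 0.87), Rps24 (r = 0.86) and Rplp0 (r = 0.86). Within control arrays alone their r with Ncam1 was 0.84, 0.86 and 0.74, and within denervated arrays 0.47, 0.67 and 0.68. These values pool rats 1 to 4 with rats 5 to 8, whose centred control means of Ncam1 were 0.66 and -0.03. Control values as deposited did not overlap between these sets for Eef1a1 (10.04 to 10.75 and 8.45 to 9.72) or Rps24 (11.20 to 12.56 and 9.71 to 10.76). The r values in control muscle thus cannot separate variation among rats from a difference between sets. Closest to Nrcam were S100a4, a calcium-binding protein known from fibroblasts (r = 0.90), Eef1a1 (r = 0.90) and Klk1c2, a kallikrein-type protease (r = 0.90). The r with Nrcam was 0.66 within control and -0.37 within denervated arrays for Klk1c2, 0.18 and 0.64 for Eef1a1, and 0.36 and 0.88 for S100a4. Closest to Emb were Zfp386, a zinc finger gene (r = 0.93, with 0.87 within control and 0.88 within denervated arrays), the matrix proteoglycan Bgn (r = 0.87) and S100a4 (r = 0.87). Within control and denervated arrays the r with Emb was 0.49 and 0.94 for Bgn, and 0.54 and 0.77 for S100a4. In denervated muscle centred Nrcam and Emb did not overlap between the rat sets. Variation among rats and the difference between sets therefore cannot be told apart in their r values there. Among the 4 genes themselves r over the 16 arrays was 0.76 for Nrcam with Emb, 0.74 for Ncam1 with Nrcam and 0.61 for Ncam1 with Emb. Alcam was closest to Serinc5 (r = 0.84), Cxcl1 (r = 0.80) and Lipf (r = 0.80). These likenesses include floor values, since Lipf sat at the floor on all 16 arrays, Serinc5 on 8 control and 6 denervated arrays, and Cxcl1 on 4 and 7.

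No other measured immunoglobulin-type adhesion molecule passed. Of 55 listed genes 13 were on the array, and limma called none, against 6.29% of all probes in either direction. At an unadjusted p under 0.05, 2 of the 13 passed, beside 211 of all 1176 probes. By exact permutation with adjustment over all probes none of the 13 passed, beside 67 of all 1176 probes. Their median difference was 0.48, beside 0.22 over all probes, and 0.27 after centring. The lowest adjusted p-values belonged to Cd48, a leukocyte surface receptor, Cntn6 and Cntn5, which are contactins of nerve cells. Cd48 went from 7.69 ± 1.06 to 8.93 ± 0.28 (SD, n = 8 per group), a difference of 1.24 (adjusted p = 0.0688). It passed without control rat 2 (adjusted p = 0.0479) and without control rat 4 (adjusted p = 0.0230). Cntn6 differed by 1.13 (adjusted p = 0.128) and Cntn5 by -0.86 (adjusted p = 0.342), and neither passed. The sign of Cntn5 depended on the set, with -1.84 in rats 1 to 4 and 0.12 in rats 5 to 8. For Cntn6 the differences were 1.33 and 0.92.

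The closest relatives on the array were named after their values were seen. L1cam, the founding relative of Nrcam, stood at 7.57 ± 0.48 in control and 7.78 ± 0.98 in denervated muscle, a difference of 0.21 (SE 0.47, adjusted p = 0.871). Nptn, neuroplastin, a relative of Emb, stood at 9.51 ± 0.68 and 9.44 ± 0.57 (SD, n = 8 per group), a difference of -0.07 (SE 0.36, adjusted p = 0.946). Probes on such membranes can bind transcripts of close relatives, and the values of L1cam and Nptn are given beside Nrcam and Emb for that reason. Whether the difference of Nrcam exceeds that of L1cam, or that of Emb exceeds Nptn, was not tested, since Nrcam and Emb were chosen for their differences.

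**Figure D3:**
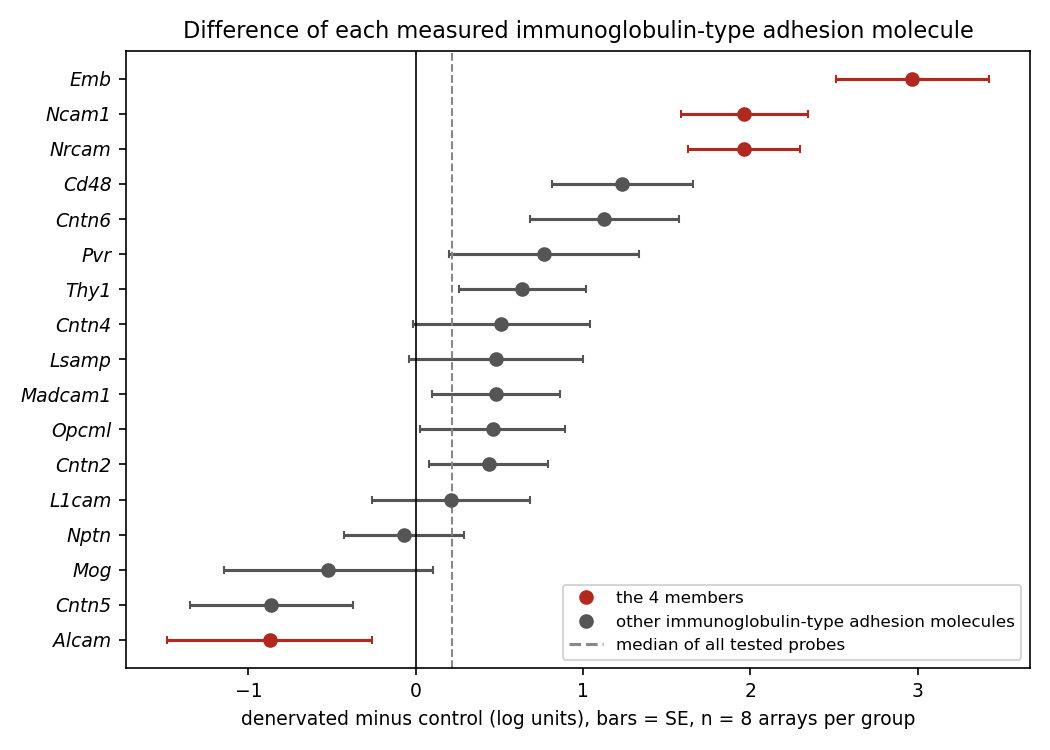
Each point is the difference, denervated minus control, in log units (horizontal axis) of 1 measured gene with its SE (n = 8 arrays per group), with the 4 genes of the report in red and the 13 other immunoglobulin-type adhesion molecules in grey. The dashed line is the median of all tested probes (0.22), and the grey points lie between -0.86 and 1.24, below Ncam1 and Nrcam (1.96 each) and Emb (2.97), which were chosen for their differences.

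Among genes known as partners or modifiers of these molecules, 12 of 37 were measured, 1 rose and 1 fell, beside 5.44% of all probes called higher and 0.85% called lower, and the median difference was 0.17. Msn rose. It encodes moesin, which links surface proteins to actin and is of the family that ties Alcam to the cytoskeleton. Control values of Msn ran from 7.48 to 8.96 and denervated values from 9.13 to 10.36, so the groups were separate, and the difference was 1.61 (SE 0.36, adjusted p = 0.00255). For rats 1 to 4 alone the Msn difference was 1.18 and did not pass (adjusted p = 0.220). Slc16a3 fell. It encodes MCT4, the lactate exporter of glycolytic fibres, whose usual escort is basigin rather than embigin. Control values ran from 8.63 to 10.24 and denervated values from 6.48 to 9.28, which overlapped, and the difference was -1.47 (SE 0.40, adjusted p = 0.0201). The call was lost without denervated rat 2 (adjusted p = 0.0601), in rats 5 to 8 alone (adjusted p = 0.324) and by exact permutation (adjusted p = 0.0530). Slc16a7, which encodes MCT2, a transporter that embigin can escort, was named after its value was seen. Its difference was -1.02 (SE 0.62, adjusted p = 0.382), with floor values on 2 arrays of the control and 4 of the denervated group.

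Adhesion proteins of other classes were few on the array. Of 9 measured selectins, tetraspanins, syndecans and similar surface proteins of 26 listed, 1 rose and none fell, beside 5.44% of all probes called higher and 0.85% lower, with a median difference of 0.31. The riser was Cd63, a tetraspanin of lysosomes and the cell surface, from 8.97 ± 0.73 to 10.18 ± 0.33 (SD, n = 8 per group), a difference of 1.22 (SE 0.35, adjusted p = 0.0252) with separate groups. Its call was lost when control rat 7 (adjusted p = 0.0521) or denervated rat 4, 6 or 8 (adjusted p = 0.0536, 0.0544 and 0.0585) was left out, after centring without control rat 6 (adjusted p = 0.0769), and in rats 1 to 4 alone (adjusted p = 0.395). None of 3 integrins passed in limma, 0 at an unadjusted p and 0 by exact permutation. Itga7, the laminin-binding integrin of muscle fibres, differed by -0.59 (adjusted p = 0.559), Itgae by -0.33 (adjusted p = 0.760) and Itgb7 by -0.25 (adjusted p = 0.869). Celsr3, a cadherin of developing axons and the only measured gene of the cadherin and catenin list, differed by -1.66 in limma (adjusted p = 0.0548), and passed as lower by exact permutation (adjusted p = 0.0318), after centring (adjusted p = 0.0169) and after quantile normalisation (adjusted p = 0.00752). With the common floor it differed by -0.85 and did not pass (adjusted p = 0.0814), and 2 denervated arrays had it at their floor.

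**Figure D4:**
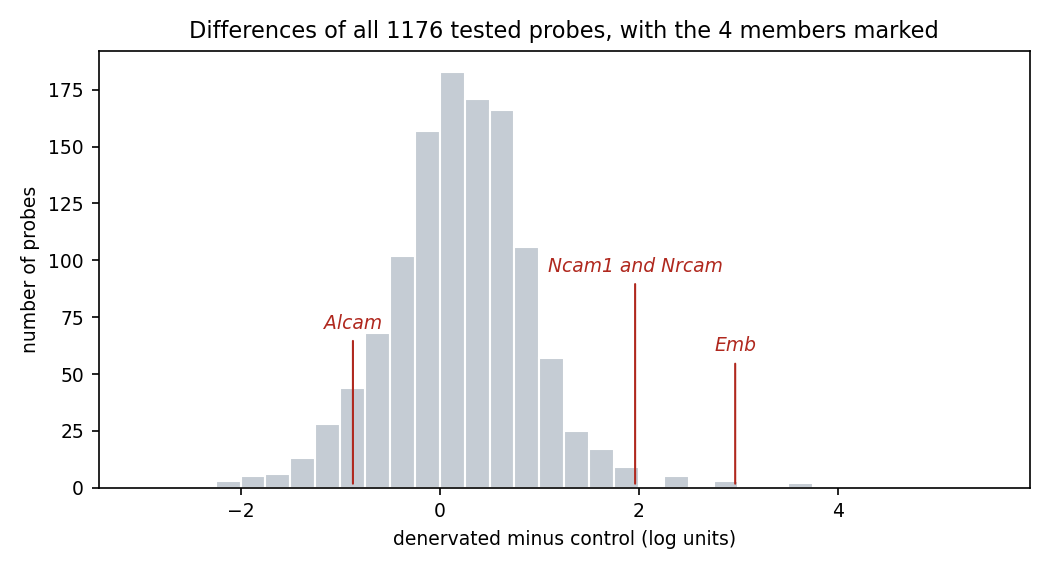
The histogram counts probes (vertical axis) by their difference, denervated minus control, in log units (horizontal axis) over all 1176 tested probes, with red lines at the 4 genes. Alcam (-0.87) lies within the bulk, and Ncam1, Nrcam (1.96 each) and Emb (2.97) lie in the upper tail from which they were proposed.

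Several cell types other than fibres can carry these 4 molecules, and markers of those types are given here, beside 5.44% of all probes called higher. Of 3 measured myogenic precursor markers 2 rose, Myog (by 1.85, adjusted p = 3.79e-04) and Myod1 (by 1.33, adjusted p = 0.0450, but 0.157 once arrays were centred). Myod1 also did not pass by exact permutation (adjusted p = 0.1965). In limma its call was lost with the common floor (adjusted p = 0.136), quantile normalisation (0.182) and rats 1 to 4 alone (0.143). It passed with rat number as a replicate block (adjusted p = 0.00349). The centred mean of this list ranged from 0.06 to 2.00 over control and from 0.88 to 2.66 over denervated arrays. Of 5 fibroblast and matrix markers 3 rose, S100a4, Bgn and Dcn, and the centred mean ranged from 0.68 to 2.34 and from 2.12 to 3.52. Dcn did not pass after centring (adjusted p = 0.0782). Of 11 Schwann cell and nerve markers 1 rose, Nefm, which did not pass after centring either (adjusted p = 0.126), and the centred list mean ranged from -1.89 to -0.60 and from -1.71 to -0.19. Among that list's defining Schwann cell markers Sox10 differed by -0.04, Egr2 by -0.61, S100b by 0.41 and Prx by 0.59. Sox10 was at the floor on 1 control and 1 denervated array, and Egr2 on 4 and 3. None of 4 leukocyte markers passed in limma, with 3 at an unadjusted p and 1 by exact permutation. Over all 1176 probes 211 passed at an unadjusted p and 67 by exact permutation. The centred mean of the leukocyte list ranged from -0.55 to 1.17 and from -0.72 to 1.12. In a fit blocked on the 2 rat sets, 3 of the 4 passed, where 131 of all 1176 probes were called. Cd48 (1.24, adjusted p = 0.0346) and C1qb (0.95, adjusted p = 0.0324) were higher and Cxcl1 (-1.92, adjusted p = 0.0270) was lower. Most denervated values of Cxcl1 (7 of 8) and 4 of its control values were floor values, hence upper bounds. With the common floor, without the block, Cxcl1 differed by -0.15 in limma and did not pass (adjusted p = 0.56). Of 2 markers of endothelium and smooth muscle none passed in limma, with 0 at an unadjusted p and 0 by exact permutation, and their centred mean ranged from -1.54 to 1.55 and from -1.86 to 1.55. Their part in the values of Ncam1, Nrcam and Emb was not tested.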

How the data were processed

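Per the labels, Atlas membranes from Clontech carried the hybridised cDNA, a phosphorimager recorded them, and Array Vision values were normalised by linear regression. The deposited values were read as a score on a log scale of unstated base; background correction is not given in the sources used here. Of 1185 probes, 9 reference-gene probes on another scale were left out. The platform table named 1 gene for 1106 of the 1176 others, several for 2 and none for 68, and 1099 gene IDs were found in a RefSeq table of GRCr8, used for current symbols; the remaining 7 kept the platform's symbol. Where several probes named 1 gene, the brightest on average stood for it in a list.

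Values were used as deposited in limma 3.58.1 (R 4.3.3; lmFit, eBayes with trend, two-sided), with Benjamini-Hochberg adjustment over all 1176 probes and a threshold of 0.05. The procedure was tested on simulated data with independent noise for each probe. Those data held no floor, no shift of a whole array and no rat sets, so the procedure was not tested under these features. Exact permutation per probe used all 12870 groupings of the arrays. Members and gene lists were chosen with earlier results of these data known. Named were the 4 genes, in each list every gene that passed or otherwise the 3 with the lowest adjusted p, and the 3 probes most like each gene; other names are said to be so. The same naming was used for the marker lists, of which only part is named. Outside this rule, Ckm, Cacna1s and Pgam2 were named among the fibre markers. Sox10, Egr2, S100b and Prx were named outside it among the Schwann cell and nerve markers. Alternatives were scalings, floors, filters, blocks, rat sets and single arrays left out. Figures were drawn with matplotlib 3.10.9. The number of arrays limits the precision.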

Additional observations from a re-analysis of the deposited data

How the results depend on the processing

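The differences of Ncam1, Nrcam and Emb were above 0 under all 30 alternatives run for each. Leaving out 1 array gave 1.75 to 2.23 for Ncam1, 1.86 to 2.04 for Nrcam, 2.47 to 3.31 for Emb and -1.16 to -0.62 for Alcam. By more than 1 SD moved Ncam1 in rats 1 to 4 (1.01) and rats 5 to 8 (2.92), Nrcam after quantile normalisation (1.58), and Alcam in rats 1 to 4 (0.21) and rats 5 to 8 (-1.95); the cause was not tested. Of all probes 74 were called, 64 higher and 10 lower. The count was 43 to 98 when 1 array was left out, 43 after centring without control rat 6, 44 with a common floor without control rat 6, 30 in rats 1 to 4 and 139 in rats 5 to 8, where the fits hold fewer arrays. With rats 1 to 4 and 5 to 8 as a block it was 131, and 117 after centring. Centring each array gave 35 higher and 15 lower, and quantile normalisation 35 and 27. With rat number as a replicate block 113 probes were called, and 141 after centring. Same-numbered arrays deviated together with r from 0.06 to 0.19, over 0.1 for 7 of 8 numbers. Of 8 control arrays, 2 correlated best with their own number, and every best match lay within the same rat set. Because the sets differ, these values cannot decide whether equal numbers stand for 1 animal. The numbers were not taken as pairs because the labels do not state it. Of the other immunoglobulin-type molecules 0 passed, and 0 to 1 when 1 array was left out. The count was 1, Cd48, with the replicate block, with that block after centring (1) and with the rat sets as a block (1). Of the 12 correlations 2 passed by Pearson's r after centring, 1 as deposited, 0 after quantile normalisation and 0 within rat sets. The centred fits with a block, the common floor without control rat 6, and the quantile and within-set correlations were chosen after seeing the data. Values at the floor, as for Alcam on 3 control and 2 denervated arrays, are upper bounds.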

Other observations

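The array on which Ncam1 was lowest among denervated rats, that of rat 3, was also the lowest of its group for the 3 genes of protein synthesis most like Ncam1. Those genes were picked for their correlation with Ncam1 over arrays that include this one, so their low values there restate that choice. Eef1a1 stood at 11.56 there, below 12.07 to 12.97 on the other denervated arrays, Rps24 at 11.18 below 12.37 to 14.04, and Rplp0 at 9.72 below 10.81 to 12.10. The Eef1a1 value nevertheless lay above all control values (8.45 to 10.75), whereas Ncam1, Rps24 and Rplp0 fell inside their control ranges. Nrcam and Emb were not low on this array, and L1cam was at the array's floor (5.93). The array's median, 8.07, was inside the range of the other denervated arrays (7.97 to 8.60).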
